A study of Mus musculus with 6 samples.

Results

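The genes described here encode proteins of the complement system and its receptors: C1qa, C1qb and C1qc, the ficolin gene Fcna, C4b, Cfb, and the receptor genes C3ar1 and C5ar1, together with C3. They were taken from the array's gene annotation by symbol, without use of any measured value. Of the 9 genes, 7 were read by 12 probe sets of their own, out of 18193 genes and 45037 probe sets in all. C4b was read only by 1 probe set that the annotation gives to C4a or C4b, and its values are reported under both names. C3 was not analysed here, because no probe set carried its symbol. None of the 9 genes encodes an inhibitor of complement, so the regulators appear below with the rest of the pathway.

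Whole lung RNA came from adult BALB/c mice of 3 genotypes, with 2 arrays a group and RNA of 4 mice pooled on each array. IL4R KO + SMP8-IL4R mice lacked the endogenous IL-4 receptor (IL4R -/-) and were heterozygous for a transgene that expresses IL4R from the SMP8 promoter, which the study's design calls specific to smooth muscle. IL4R KO mice (IL4R -/-) carried no transgene, and WT mice (IL4R +/+) carried none either. IL-13, a cytokine of allergic inflammation whose receptor contains the IL-4 receptor alpha chain, was given to every mouse, WT included, at 2 to 3 µg into the trachea once a day for 7 days. Lungs were removed 24 hours after the final instillation. No comparison is therefore against an untreated lung. The value of a probe set is its log2 intensity after RMA (robust multi-array average), so a difference of 1 is a doubling, and 7.10 was the median of all values. The labels do not say whether pools came from separate litters or experiments. Each p-value sets a difference between groups against a spread between pools that the 3 groups share, not against the spread between mice.

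Complement is a cascade of blood and tissue proteins that marks microbes and dying cells. C1q, assembled from the A, B and C chains, starts the classical pathway when it binds antibody complexes or cell debris, and tissue macrophages are a main source of it. Ficolins are lectins that start the lectin pathway through MASP proteases. Both pathways cleave C4 and then C3, and factor B (Cfb) amplifies the cleavage in the alternative pathway. The liver secretes most of the circulating components. The fragments C3a and C5a act on the G protein-coupled receptors C3ar1 and C5ar1 of myeloid cells, and C3a receptor signalling has been linked to allergic airway disease in mice.

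The upstream windows of C1qb, C1qc and Fcna are shown because the C1q genes varied together over the pools and Fcna was the 1 gene of these called between transgenic and WT lungs. C1qb, C1qc and C1qa are neighbours on chromosome 4 in the RefSeq gene order. Each window holds 250 bases before and 50 bases after a RefSeq transcription start (build GRCm38.p6, all on the minus strand) and lies at chr4:136886151-136886450 for C1qb, chr4:136892865-136893164 for C1qc and chr2:25627925-25628224 for Fcna. Capitals mark matches to GAGGAAG, a core sequence bound by the myeloid factor PU.1, on either strand.
C1qb: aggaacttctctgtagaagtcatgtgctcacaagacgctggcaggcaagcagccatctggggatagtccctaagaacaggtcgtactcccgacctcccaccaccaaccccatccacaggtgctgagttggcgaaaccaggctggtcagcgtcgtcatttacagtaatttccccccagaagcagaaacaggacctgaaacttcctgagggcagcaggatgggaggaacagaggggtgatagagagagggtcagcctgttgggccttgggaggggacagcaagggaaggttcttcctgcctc
C1qc: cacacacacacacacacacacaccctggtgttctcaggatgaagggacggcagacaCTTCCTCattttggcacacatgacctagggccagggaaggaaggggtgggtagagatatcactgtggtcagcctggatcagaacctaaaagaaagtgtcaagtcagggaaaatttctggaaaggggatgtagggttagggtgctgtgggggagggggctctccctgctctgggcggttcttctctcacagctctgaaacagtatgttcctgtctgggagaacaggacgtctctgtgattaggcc
Fcna: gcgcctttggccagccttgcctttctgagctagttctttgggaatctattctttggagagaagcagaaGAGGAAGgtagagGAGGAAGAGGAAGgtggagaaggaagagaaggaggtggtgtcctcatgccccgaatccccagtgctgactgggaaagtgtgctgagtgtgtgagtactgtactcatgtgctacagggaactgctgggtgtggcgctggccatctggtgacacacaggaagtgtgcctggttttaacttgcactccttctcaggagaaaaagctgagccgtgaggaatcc
The Fcna window held 3 matches, which began 182, 169 and 163 bases before the start, and the last pair shares 1 base. The C1qc window held 1 match, on the other strand, and the C1qb window held 0. Among 32851 windows of the same length over all genes, 13.6% held at least 1 match. The 5 windows of these genes that the table holds, those of C3ar1 and C5ar1 included, had 0 matches on either strand to TTC and GAA set 4 bases apart, the spacing that STAT6 prefers, which 6.95% of all windows contain. The windows also had 0 matches to TTCNNNGAA (8.30% of all windows), to the interferon response sequence, GAAA repeated after 2 bases (3.44%), and to TTGCNNAA, a C/EBP sequence (10.8%). A match is a string of letters, not a measured binding site.

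The lung markers Sftpc, Scgb1a1 and Ager had log2 values of at least 14.29 on every array. The goblet cell gene Clca1, a known target of IL-13, lay between 3.91 and 4.80 in the transgenic pools and between 4.57 and 5.27 in the IL4R KO pools, against 14.29 and 14.32 in the WT pools. Pools of a group were not alike. Albumin (Alb) reached 12.26 in pool 1 of IL4R KO and 11.81 in pool 2 of WT, against 5.68 to 5.93 in the other 4 arrays, and the mean of 13 hepatocyte markers followed it. The mean of 3 Y-linked genes was 3.72 in IL4R KO pool 2 and at least 7.50 elsewhere. S100a8, an abundant neutrophil gene, was 13.59 in transgenic pool 1 and 12.56 in IL4R KO pool 1, against 10.25 to 11.08 in the other arrays. The SD over genes of the difference between pools was 0.17 in transgenic, 0.34 in IL4R KO and 0.22 in WT lungs. The adipocyte gene Adipoq was 8.79 and 8.75 in transgenic, 10.06 and 10.26 in IL4R KO, and 8.08 and 8.39 in WT pools. In IL4R KO against WT, limma called 3 of 3 adipocyte and 2 of 4 mesothelial markers higher, and 4.7% of all genes. In transgenic against IL4R KO it called 2 of 3 adipocyte markers lower, 0 of 4 mesothelial markers, and 0.101% of all genes. The part of these tissues in the complement values was not tested.

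Fcna, the mouse ficolin of blood and of liver and spleen macrophages, was lower than in WT in lungs whose receptor came from the smooth muscle transgene, and its values there also lay below those of IL4R KO lungs. Its log2 values were 7.44 and 7.67 in the IL4R KO + SMP8-IL4R pools, 8.41 and 8.44 in the IL4R KO pools, and 8.41 and 8.46 in the WT pools. Both transgenic pools lay below all 4 other arrays, whose values spanned less than the gap between the transgenic pools. Against WT, the log2 difference of Fcna was -0.88 (SE 0.09, 95% interval -1.09 to -0.66), a level 1.84-fold lower, and passed the test over 11860 genes (limma, adjusted p = 0.00743). It was the 1 of 7 genes called in that comparison, where 2.84% of all genes tested were called and 2.15% were called lower. Transgenic and WT pools did not overlap for 5 of the 7 genes, beside 61.7% of all genes. A whole lung sample cannot tell fewer cells of a type from less RNA per cell, for Fcna and for each gene below.

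Against IL4R KO the Fcna difference was of the same size, -0.87 (SE 0.09, 95% interval -1.08 to -0.66), but did not pass (limma adjusted p = 0.0617, 0.0288 to 0.358 over the alternatives). In that comparison 0.101% of all genes were called, 12 in number, and limma called 0 of the 7 genes. Pools did not overlap for 2 of the 7, beside 41.7% of all genes. Fcna and C3ar1 were the 2 of 7 with an unadjusted p under 0.05, which 12.4% of all genes had. With a variance trend over intensity and robust moderation, Fcna was the 1 of 7 called (adjusted p = 0.0288). The 2 comparisons of the transgenic group share its arrays, so they are not independent. Likewise the IL4R KO arrays enter both comparisons of IL4R KO, and the WT arrays both comparisons with WT. IL4R KO and WT lungs had means of 8.43 ± 0.02 and 8.43 ± 0.03 (SD, n = 2), and the 95% interval of their difference ran from -0.22 to 0.21. Without WT pool 1 or WT pool 2, where the lone WT array is assumed to vary like the other groups, the difference from WT was -0.90 or -0.86 and no longer passed (adjusted p = 0.0874 and 0.0939, 0.00382 to 0.0939 over the alternatives).

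Markers of liver macrophages were low on these arrays. The Kupffer cell gene Clec4f was between 5.98 and 6.14 in the transgenic pools, between 6.01 and 6.20 in IL4R KO and between 6.33 and 6.39 in WT, and 0 of the 4 genes of that list were bright enough to be tested. The list's mean was 5.86 and 6.11 in transgenic, 6.34 and 6.31 in IL4R KO, and 6.21 and 6.40 in WT pools. That mean was lowest in the transgenic pools, but not every gene of the list was. Vsig4 was 5.60 and 5.68 in transgenic and 5.69 and 5.57 in WT pools. Timd4 was 5.50 and 6.17 in transgenic and 5.86 and 6.22 in WT pools. Cd5l, a secreted macrophage protein, was 6.19 and 6.62 in transgenic, 6.61 and 6.60 in IL4R KO, and 6.88 and 7.48 in WT pools. Their part in the Fcna difference was not tested. Fcna differed by 0.03 between the IL4R KO pools and by 0.04 between the WT pools, and 1 pool of each pair was high in albumin. Without both albumin-high pools, which leaves 1 WT array, the Fcna difference between transgenic and WT lungs was -0.86. The 3 other genes most like Fcna over the 6 arrays were Spata18 (Pearson r = 0.99), Lrmda (0.98) and Mief2 (0.98), a description over arrays that all genes share.

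**Figure D1:**
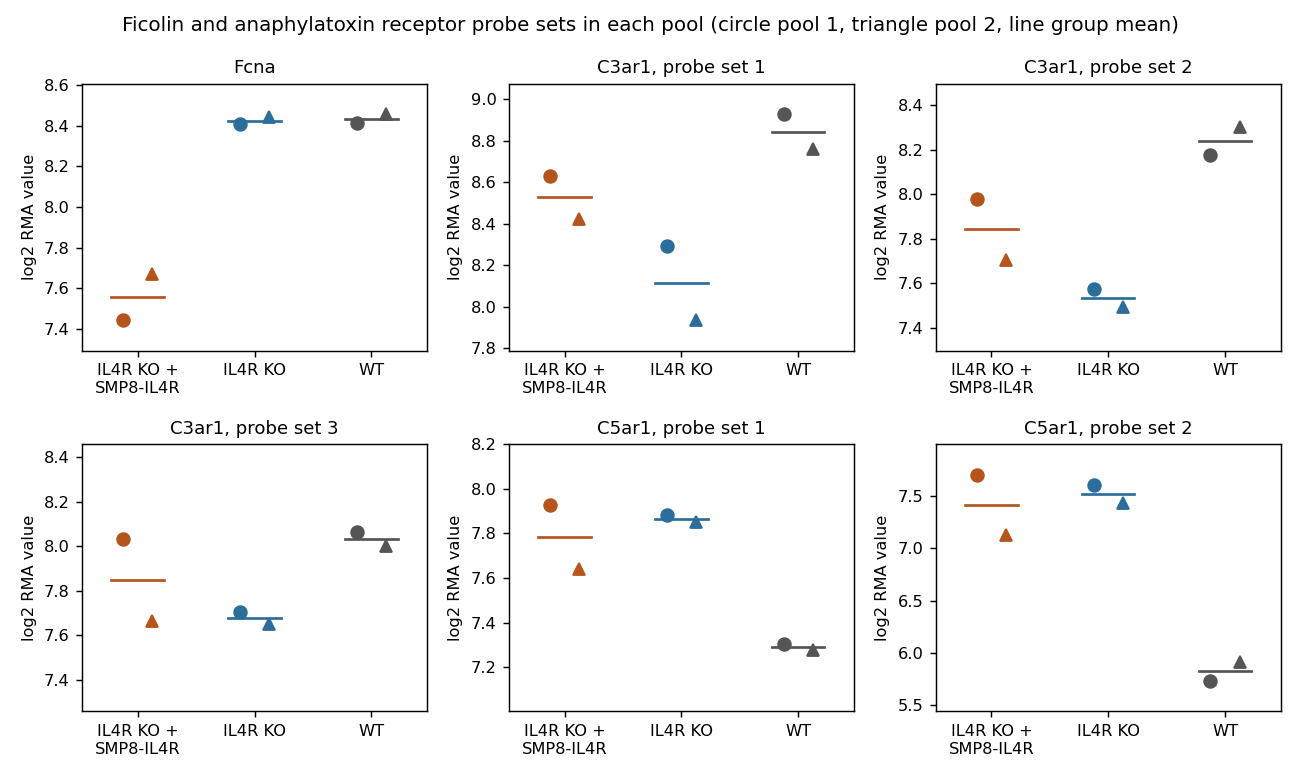
Log2 RMA value of each pool (y axis, scaled per panel) for the probe sets of Fcna, C3ar1 and C5ar1, by genotype (x axis), with circles for pool 1, triangles for pool 2 and lines for group means. Fcna is low in both transgenic pools (7.44 and 7.67), C3ar1 has its lowest group mean in IL4R KO, and C5ar1 is lowest in both WT pools.

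The anaphylatoxin receptors moved in opposite directions when the IL-4 receptor was absent. C3ar1, the receptor of C3a, was lower in IL4R KO than in WT lungs, and C5ar1, the receptor of C5a on neutrophils and macrophages, was higher. These were the 2 of 7 genes called in IL4R KO against WT, where 4.7% of all genes tested were called, 1.92% higher and 2.77% lower. Pools of the 2 groups did not overlap for 5 of the 7 genes, 4 lower and 1 higher in IL4R KO, against 51.6% of all genes (22.5% lower and 29.1% higher). The median difference of the 7 genes was -0.34, beside 0.02 over all genes.

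C5ar1 had log2 values of 7.93 and 7.64 in the transgenic pools, 7.88 and 7.85 in the IL4R KO pools, and 7.30 and 7.27 in the WT pools by its brighter probe set. All 4 arrays of mice without the endogenous receptor lay above both WT pools. IL4R KO was higher than WT by 0.58 (SE 0.10, limma adjusted p = 0.0367), a 1.49-fold difference. The transgenic group was higher than WT by 0.49 (SE 0.10, 95% interval 0.25 to 0.74), which did not pass over all genes (adjusted p = 0.0746). Transgenic and IL4R KO lungs differed by -0.08, with a 95% interval of -0.33 to 0.16. The dimmer probe set gave 7.70 and 7.13 in transgenic, 7.60 and 7.43 in IL4R KO, and 5.74 and 5.91 in WT pools.

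That dimmer C5ar1 probe set showed the larger contrast. Tested among all 45037 probe sets, of which 1.58% were called between IL4R KO and WT, it was higher in IL4R KO by 1.69 (SE 0.18, limma adjusted p = 0.00967), a 3.23-fold difference. It was also higher in transgenic lungs than in WT by 1.59 (SE 0.18, adjusted p = 0.0146), where 1.04% of probe sets were called. Between transgenic and IL4R KO lungs 0.0155% of probe sets were called, and none of these genes had one. The WT values of this probe set lay below the median of all values and above the lower quartile of 5.30. Among all probe sets the brighter one did not pass (adjusted p = 0.0586). Without WT pool 1 or WT pool 2 the C5ar1 call was lost, at 0.59 (adjusted p = 0.238) and 0.57 (adjusted p = 0.233), within 0.0129 to 0.238 over the alternatives. Without both albumin-high pools, which leaves 1 IL4R KO array against 1 WT array, the difference was 0.55.

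Neutrophils carry C5ar1, and their marker genes varied between pools. The mean of 7 neutrophil markers was 10.91 and 8.80 in transgenic, 9.93 and 9.10 in IL4R KO, and 8.69 and 9.02 in WT pools. Of 6 tested, 1 was called between IL4R KO and WT, the granule gene Ltf, which was higher in IL4R KO by 1.07 (limma adjusted p = 0.0111). Ltf was 11.41 and 11.43 in transgenic, 12.00 and 11.72 in IL4R KO, and 10.93 and 10.67 in WT pools. Between the transgenic pools it did not vary with S100a8. In the IL4R KO pools S100a8 stood at 12.56 and 11.08. There C5ar1 was higher in the same pool by 0.03 with its brighter probe set and by 0.17 with the dimmer. In the transgenic pools S100a8 stood at 13.59 and 10.56, and C5ar1 was higher in the same pool by 0.29 and 0.57. These gaps were larger than those of 96.2% and 99.1% of genes in those pools. In the WT pools S100a8 stood at 10.25 and 10.88, and pool 1 minus pool 2 was 0.03 for the brighter and -0.18 for the dimmer probe set. The part of neutrophils in the C5ar1 difference was not tested.

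C3ar1 was read by 3 probe sets that ran the same way. The brightest gave log2 values of 8.63 and 8.42 in transgenic, 8.29 and 7.94 in IL4R KO, and 8.93 and 8.76 in WT pools. The groups did not overlap, and the transgenic pools lay between the others. The log2 difference between IL4R KO and WT was -0.73 (SE 0.14, limma adjusted p = 0.0491), a 1.66-fold lower level in IL4R KO. The transgenic group was above IL4R KO by 0.41 (SE 0.14, adjusted p = 0.342) and differed from WT by -0.32 (SE 0.14, adjusted p = 0.320), and neither passed. Its place between the other groups is therefore not separated from either of them by the test.

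The next C3ar1 probe set gave 7.98 and 7.70 in transgenic, 7.57 and 7.49 in IL4R KO, and 8.17 and 8.30 in WT pools. Its difference between IL4R KO and WT, -0.71 (SE 0.11), passed among all probe sets (limma adjusted p = 0.0363). The dimmest had means of 7.85 in transgenic, 7.68 ± 0.04 in IL4R KO and 8.03 ± 0.04 in WT pools (SD, n = 2), where the transgenic pools stood at 8.03 and 7.66, with a difference of -0.36 between IL4R KO and WT that did not pass (adjusted p = 0.240). The C3ar1 call lay close to the threshold: over the gene-level alternatives the adjusted p ran from 0.0134 to 0.313, and 9 of 18 missed it. Without WT pool 1 or WT pool 2 the difference was -0.64 and -0.81, and without either transgenic pool, which alters the shared spread alone, the adjusted p was 0.0900.

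**Figure D2:**
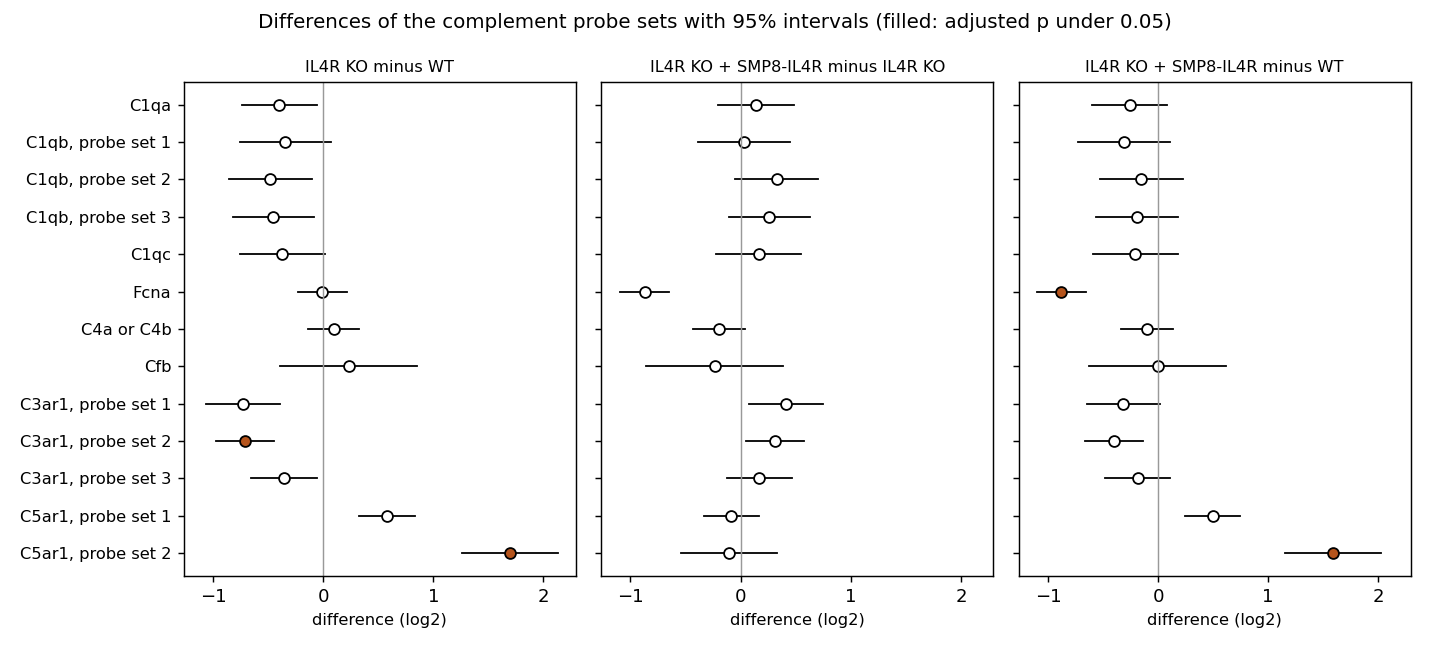
Difference between group means on the log2 scale (x axis) with its 95% interval for each of the 13 probe sets (rows), in the 3 comparisons named above the panels, from the fit over all 45037 probe sets. Filled points had an adjusted p under 0.05, which holds for 1 C3ar1 and 1 C5ar1 probe set in IL4R KO minus WT, for none in the middle panel, and for Fcna and 1 C5ar1 probe set in IL4R KO + SMP8-IL4R minus WT.

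The C1q chain genes moved together from pool to pool, and no difference between groups passed. C1qa had log2 values of 11.19 and 10.96 in the transgenic pools, 11.11 and 10.76 in the IL4R KO pools, and 11.24 and 11.42 in the WT pools. C1qb, by its brightest probe set, had 10.64 and 10.32 in transgenic, 10.68 and 10.22 in IL4R KO, and 10.70 and 10.89 in WT pools. C1qc had 10.10 and 9.87 in transgenic, 10.05 and 9.60 in IL4R KO, and 10.10 and 10.29 in WT pools. All 5 C1q probe sets were highest in WT pool 2 and lowest in IL4R KO pool 2. Pearson r between these probe sets ran from 0.84 to 0.99 over 10 pairs and 6 arrays that they share. Some of these pairs join probe sets of the same gene, C1qb.

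IL4R KO lungs had lower values than WT lungs for all 3 chains. The differences were -0.40 for C1qa (SE 0.14, 95% interval -0.75 to -0.04), -0.34 for C1qb (SE 0.18, interval -0.79 to 0.10) and -0.37 for C1qc (SE 0.17, interval -0.78 to 0.04), with limma adjusted p = 0.187, 0.328 and 0.258. The IL4R KO pools lay below the WT pools for all 3 chains, as they did for 22.5% of all genes. The gap between the IL4R KO pools was of similar size, 0.35 for C1qa, 0.46 for C1qb and 0.44 for C1qc, and exceeded the gap of 88.9%, 94.4% and 93.9% of genes in those pools. Without IL4R KO pool 1, which left pool 2 alone, C1qa (-0.57, adjusted p = 0.0492) and C1qc (-0.59, adjusted p = 0.0469) passed. Over all alternatives the adjusted p ran from 0.0492 to 0.576 for C1qa and from 0.0469 to 0.660 for C1qc.

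Between transgenic and IL4R KO lungs the C1q chains differed by 0.14 for C1qa, 0.03 for C1qb and 0.16 for C1qc. The 95% intervals were -0.22 to 0.50, -0.42 to 0.47 and -0.24 to 0.57. Without IL4R KO pool 2 the differences were -0.03, -0.20 and -0.06, in the other direction. The transgenic lungs differed from WT by -0.26, -0.31 and -0.21 (adjusted p = 0.409, 0.422 and 0.565). The dimmer C1qb probe sets, whose names mark probes that can bind related transcripts, gave 0.33 and 0.26 between transgenic and IL4R KO lungs, larger than the 0.03 of the brightest. One gave 10.070 and 9.961 in transgenic and 9.939 and 9.437 in IL4R KO pools. The other gave 8.851 and 8.845 in transgenic and 8.838 and 8.337 in IL4R KO pools. Their pools thus did not overlap, by a narrow margin at IL4R KO pool 1, beside 41.7% of all genes. Neither passed over all probe sets (adjusted p = 0.480 and 0.553). Between IL4R KO and WT they gave -0.48 and -0.45.

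Macrophage markers gave a mixed picture beside C1q. Csf1r, the receptor that macrophages need for survival, was 12.11 and 11.98 in transgenic, 12.22 and 12.23 in IL4R KO, and 12.33 and 12.34 in WT pools. Adgre1 (F4/80) was 8.89 and 8.76 in transgenic, 8.94 and 8.70 in IL4R KO, and 9.09 and 9.22 in WT pools, with IL4R KO pool 2 lowest, as for C1q. Of 11 tested macrophage markers, Mrc1 (-0.69) and Itgax (-1.64) were called lower in IL4R KO than in WT and Fcgr1 (1.17) higher. The mean of the 12 markers on the array was 9.07 and 8.87 in transgenic, 8.86 and 8.84 in IL4R KO, and 8.91 and 9.02 in WT pools. The part of macrophage number in the C1q values was not tested. IL4R KO pool 2 is also the pool with low Y-linked genes, and with those genes as a covariate the differences between transgenic and IL4R KO lungs were -0.01 for C1qa, -0.17 for C1qb and -0.02 for C1qc. Those genes were low in that pool alone, so the covariate does much the same as leaving that pool out. It cannot tell the Y-linked genes from any other trait of that pool. The genes most like the mean of the C1q chains over the 6 arrays were Slc18a1, Marchf5 and Gnai3, each with Pearson r of 0.99.

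**Figure D3:**
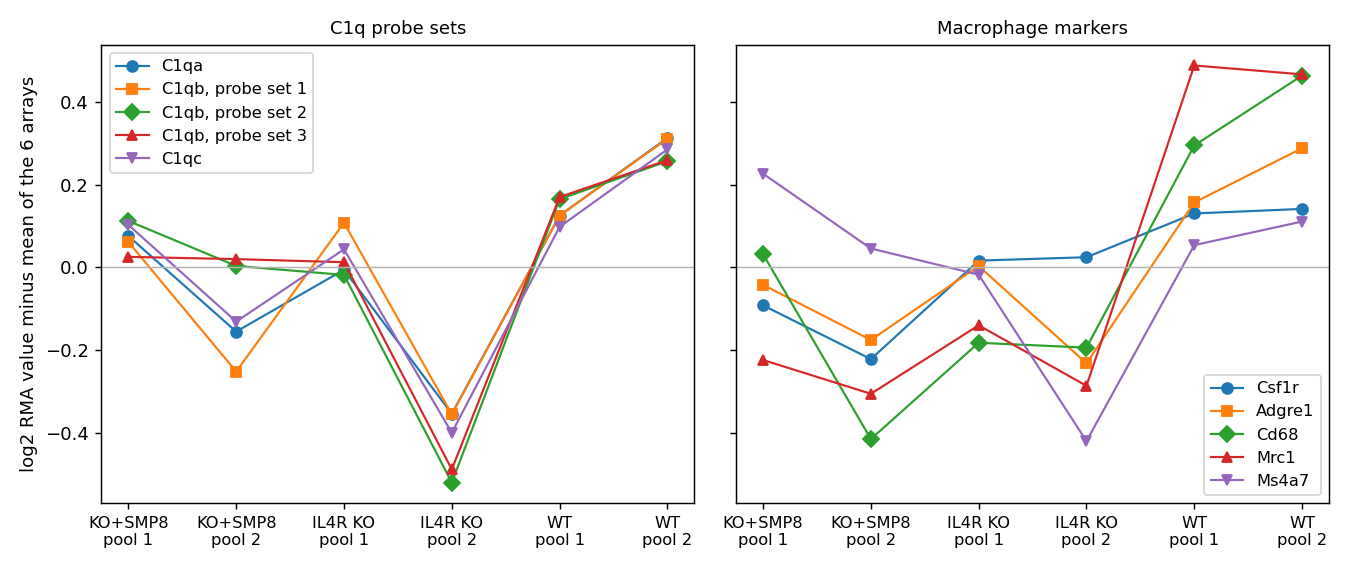
Log2 RMA value minus the probe set's own mean over the 6 arrays (y axis) in each pool (x axis), where KO+SMP8 stands for IL4R KO + SMP8-IL4R. The left panel holds the 5 C1q probe sets and the right panel 5 of the 12 macrophage markers. All 5 markers drawn had a lower mean in IL4R KO than in WT. Of those not drawn, Fcgr1 (1.17), Cx3cr1 (0.31), Mertk (0.23) and Siglecf (0.11) were higher in IL4R KO than in WT. Itgax (-1.64) and Aif1 (-0.07), also not drawn, were lower. Marco, not drawn and too dim to be tested, was 6.97 and 6.88 in transgenic, 6.42 and 6.40 in IL4R KO, and 5.84 and 5.99 in WT pools. All C1q probe sets are lowest in IL4R KO pool 2 and highest in WT pool 2, while the macrophage markers differ in which pool is lowest.

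No difference between groups passed the test for the fluid-phase components Cfb and C4. Cfb, the protease of the alternative pathway, had log2 values of 9.24 and 8.68 in transgenic, 9.56 and 8.83 in IL4R KO, and 8.94 and 8.98 in WT pools. Its pools differed by 0.56 in the transgenic and 0.73 in the IL4R KO group, more than 99.1% and 98.1% of genes in those pools, and by 0.04 in WT. IL4R KO differed from WT by 0.23 (SE 0.28, 95% interval -0.44 to 0.91, limma adjusted p = 0.660), and transgenic from IL4R KO by -0.24 (interval -0.91 to 0.44). The transgenic difference from WT was -0.0015 within an interval of -0.68 to 0.68. The high pools, transgenic pool 1 and IL4R KO pool 1, were also those with high S100a8, and the part of neutrophils was not tested. WT pool 2, which held albumin at 11.81, had a Cfb value 0.04 above that of WT pool 1.

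The C4a or C4b probe set gave 11.54 and 11.60 in transgenic, 11.89 and 11.65 in IL4R KO, and 11.65 and 11.69 in WT pools. C4b is the complement component that covalently marks surfaces, and mouse C4a is known as sex-limited protein. The highest value was in IL4R KO pool 1, which also held the most albumin. Differences were 0.10 for IL4R KO against WT, -0.20 for transgenic against IL4R KO and -0.10 for transgenic against WT, with adjusted p = 0.675, 0.491 and 0.669 over all probe sets. Both transgenic pools lay below the 4 other arrays.

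The terminal components C9 and C8g were high where albumin was high. C9, the pore-forming terminal component, was 5.51 and 5.42 in transgenic, 7.30 and 5.75 in IL4R KO, and 5.75 and 7.15 in WT pools. C8g, which joins the same membrane attack complex, was 6.01 and 6.03 in transgenic, 7.61 and 6.49 in IL4R KO, and 6.26 and 7.10 in WT pools. Both stood at 7.10 or above in the albumin-high pools and at 6.49 or below in the other 4 arrays. The other terminal components tested, C6 and Hc (C5), did not share this pattern. C6 was 10.32 and 10.54 in IL4R KO and 10.04 and 10.10 in WT pools. Hc was 12.66 and 12.87 in IL4R KO and 13.13 and 13.16 in WT pools. Cfi, the protease that inactivates C3b and C4b, was 6.26 and 6.42 in transgenic, 7.85 and 6.34 in IL4R KO, and 7.65 and 8.22 in WT pools. It was high in WT pool 1 as well, where the mean of the hepatocyte markers was 5.66. C9 and Cfi were chosen after their values were seen.

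**Figure D4:**
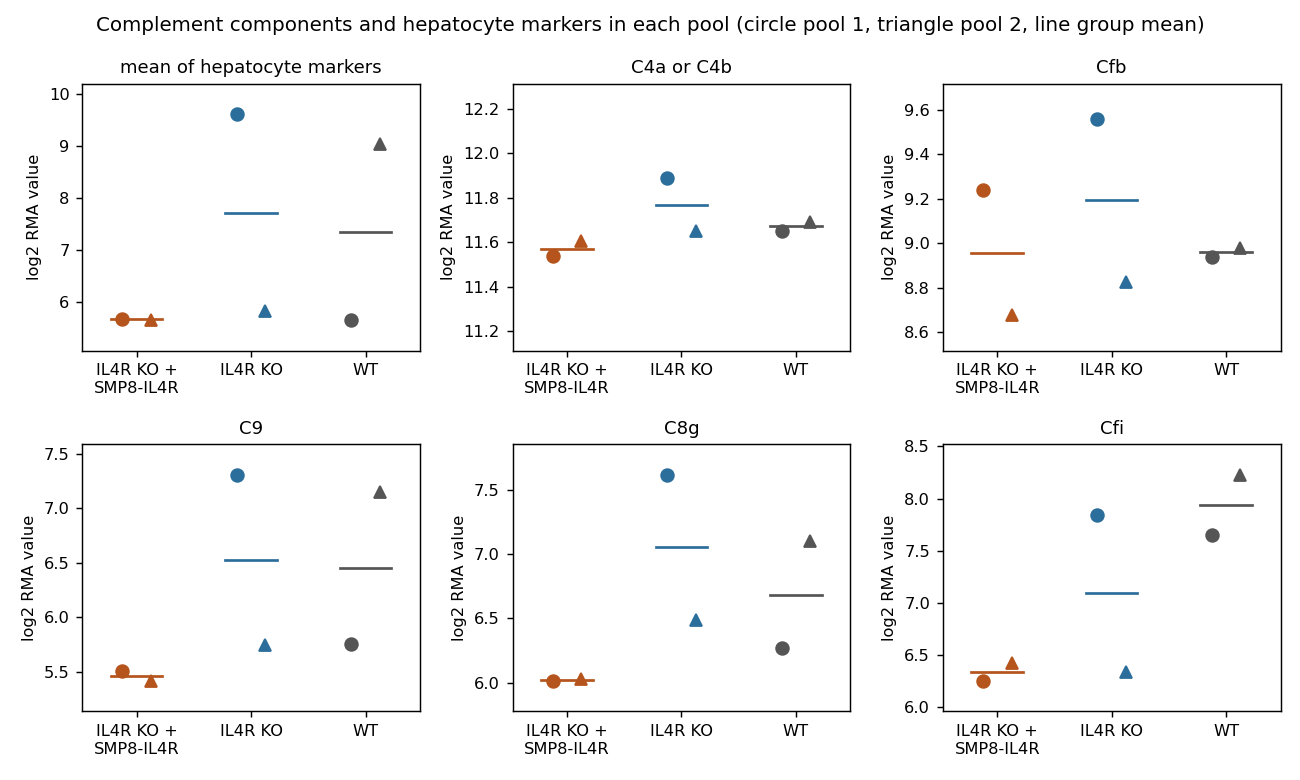
Log2 RMA value of each pool (y axis, scaled per panel) by genotype (x axis) for the mean of 13 hepatocyte markers, C4a or C4b, Cfb, C9, C8g and Cfi, with circles for pool 1, triangles for pool 2 and lines for group means. C9 and C8g are high where the hepatocyte markers are high, in pool 1 of IL4R KO and pool 2 of WT, and Cfb is high in transgenic pool 1 and IL4R KO pool 1.

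The rest of the pathway comprised 44 listed genes, of which 36 had a probe set and 22 were bright enough to be tested. Among these, C9 and C8g were bright enough only in the albumin-high pools, IL4R KO pool 1 and WT pool 2. Between IL4R KO and WT, 1 was called higher and 3 lower, where 1.92% of all genes were called higher and 2.77% lower (4.7% in all), with a median difference of 0.06 beside 0.02 over all genes. Itgax, the alpha chain of complement receptor 4 and a marker of alveolar macrophages and dendritic cells, was 10.13 and 9.89 in transgenic, 10.23 and 9.89 in IL4R KO, and 11.61 and 11.80 in WT pools. IL4R KO was 3.12-fold lower (log2 difference of -1.64 with SE 0.14, limma adjusted p = 0.00391). Properdin (Cfp), which stabilises the alternative pathway convertase, was 8.20 and 7.98 in transgenic, 8.16 and 8.27 in IL4R KO, and 8.94 and 9.03 in WT pools, and fell by 0.77 in IL4R KO (adjusted p = 0.0133). A second Cfp probe set gave -0.10 and did not pass.

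Regulators of complement moved both ways in IL4R KO lungs. Cd55, which speeds the decay of convertases on cell surfaces, was lower in IL4R KO than in WT, with a log2 difference of -0.58 (limma adjusted p = 0.0333). Its other probe sets gave -0.32 and -0.43. Over all probe sets no Cd55 probe set passed (limma adjusted p = 0.0532 for the brightest, then 0.147 and 0.276). The Cd55 call was also lost with the median of probe sets and with the 2 groups alone. Clusterin (Clu), which binds the terminal complex in fluids, was higher in IL4R KO by 0.63 (adjusted p = 0.0304), and its other probe sets gave 0.62 to 0.78. Of the genes not called, Colec12 (-0.38), C6 (0.36) and the integrin chain Itgb2 (-0.51) had the lowest p, with adjusted p = 0.0823, 0.0824 and 0.0866. Serping1, the C1 inhibitor, lay between 12.49 and 12.71 on all arrays and was not called.

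Between transgenic and IL4R KO lungs limma called 0 of the 22, where 0.101% of all genes were called. Cpn1 (-0.33, adjusted p = 0.236), Colec12 (0.29, adjusted p = 0.325) and C8g (-1.03, adjusted p = 0.399) had the lowest p. They were the 3 of 22 with an unadjusted p under 0.05, which 12.4% of all genes had. C8g was 7.61 in the albumin-high IL4R KO pool and 6.49 in the other. Against WT, transgenic lungs had lower Itgax (-1.70, adjusted p = 0.00427) and Cfp (-0.89, adjusted p = 0.00903) and higher Clu (0.68, adjusted p = 0.0327), 3 called of 22, where 2.84% of all genes were called. The second Cfp probe set gave 0.05 in that comparison, in the other direction, and did not pass. The median differences of the 22 genes were -0.05 against IL4R KO and -0.09 against WT, beside -0.0047 and 0.03 over all genes. Cd55 (-0.55, adjusted p = 0.0522), Hc, which encodes C5 (-0.52, adjusted p = 0.0568), and Itgb2 (-0.54, adjusted p = 0.0985) did not pass. Without WT pool 1, Itgax alone was called in both comparisons with WT, and without WT pool 2, Itgax was called in IL4R KO and none in transgenic lungs.

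**Figure D5:**
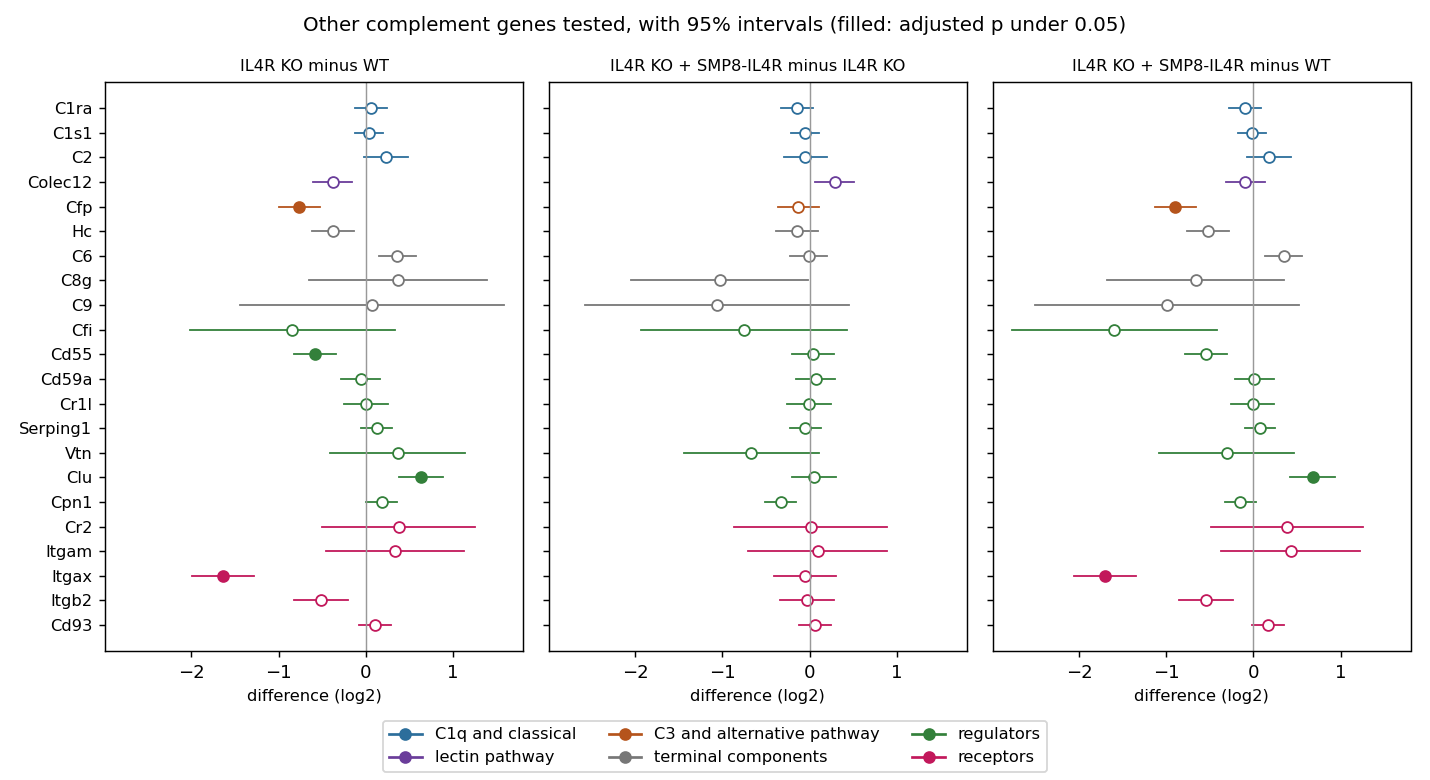
Difference between group means on the log2 scale (x axis) with its 95% interval for the 22 other complement genes tested (rows, coloured by role), in the 3 comparisons named above the panels, from the fit over 11860 genes. Filled points had an adjusted p under 0.05: Itgax, Cfp, Cd55 and Clu in IL4R KO minus WT, none in the middle panel, and Itgax, Cfp and Clu in IL4R KO + SMP8-IL4R minus WT.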

How the data were processed

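Lung RNA pools were measured on 6 Affymetrix mouse expression arrays. Deposited values are on the log2 scale after RMA, per the submitters' processing notes, and the RMA version is not given in the sources used here. Precision is limited by the number of arrays. From 45101 probe sets, 64 controls were left out. In the platform annotation 34945 probe sets had 1 gene, 932 several and 9160 none. For a gene, the probe set brightest on average was used. Genes whose probe set exceeded the overall median (7.10) on 2 or more arrays, 11860 in all, were tested with limma 3.58.1 (R 4.3.3): a mean for each group, a spread common to all arrays (3 residual and 2.86 prior degrees of freedom) and Benjamini-Hochberg adjustment over all genes. Calls are at an adjusted p under 0.05. Single probe sets were tested the same way over all 45037. Differences are IL4R KO minus WT, transgenic minus IL4R KO and transgenic minus WT. Named beside the 9 genes were the other complement genes called, the 3 with the lowest p of those not called, list-defining markers and the 3 genes most alike in pattern. Csf1r, Mrc1, Fcgr1, Ltf, Scgb1a1, Ager and Serping1 were named after their values were seen. So were Cd68, Ms4a7, Cx3cr1, Mertk, Siglecf, Aif1, Marco, Vsig4 and Timd4. The genes and lists were chosen with earlier results of these data known. The test was checked on simulated data for IL4R KO minus WT alone. The simulated noise was independent between genes and held no pool-wide signal such as that of liver, so the check does not cover such pools. Alternatives covered the filter, the probe set, the variance model, scaling, a replicate block, left-out arrays, and hepatocyte and Y-linked covariates. Promoter sequences are RefSeq's (GRCm38.p6).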

Additional observations from a re-analysis of the deposited data

How the results depend on the processing

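Of 376 differences of these genes under 19 alternatives, 333 kept their direction and their side of the threshold, 16 lost the call, 6 gained one and 21 turned sign. None of the 21 had been called. In IL4R KO against WT, the 2 calls among these genes became 1 with no filter, with the median of a gene's probe sets, with the 2 groups alone or without both albumin-high pools, and 0 with the upper-quartile filter, with all probe sets tested or with the hepatocyte covariate; leaving out 1 pool gave 0 to 4. In transgenic against IL4R KO, 0 calls became 1 (Fcna) with the intensity trend or the Y-linked covariate, and 0 to 1 with a pool left out. In transgenic against WT, 1 call became 0 with the upper-quartile filter and 2 with the median of probe sets, and 0 to 1 with a pool left out. C3ar1, C5ar1 and Fcna had no value under the upper-quartile filter.

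Of the other complement genes, leaving out 1 pool gave 1 to 7 calls in IL4R KO against WT (4 with all pools), 0 to 1 in transgenic against IL4R KO (0) and 0 to 8 in transgenic against WT (3). In transgenic against WT there were 5 with the intensity trend, 5 with arrays shifted to the same upper quartile, 8 with the 2 groups alone and 8 with the Y-linked covariate. The cause of these shifts was not tested. Leaving out 1 pool leaves a group with 1 array, and leaving out both albumin-high pools leaves IL4R KO and WT with 1 array each, whose spread is then assumed to be that of the remaining pairs.

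With a pool left out, differences that turned sign ranged in transgenic against IL4R KO from -0.034 to 0.31 for C1qa, -0.20 to 0.26 for C1qb, -0.058 to 0.39 for C1qc, -0.60 to 0.13 for Cfb and -0.23 to 0.059 for C5ar1. In transgenic against WT they ranged from -0.28 to 0.28 for Cfb. In IL4R KO against WT they ranged from -0.030 to 0.012 for Fcna and -0.13 to 0.60 for Cfb. Without both albumin-high pools Fcna was 0.029 and Cfb -0.11 in IL4R KO against WT, and Cfb was 0.13 against IL4R KO and 0.018 against WT in transgenic lungs. With the hepatocyte covariate Cfb was 0.19 in transgenic against WT. With the Y-linked covariate it was 0.021, and C1qa, C1qb and C1qc were -0.0097, -0.17 and -0.023 in transgenic against IL4R KO.

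The labels do not say whether pool numbers pair the groups. Correlations of pool deviations were 0.12 for transgenic and IL4R KO, -0.09 for transgenic and WT, and -0.51 for IL4R KO and WT. With 2 pools a group they cannot settle the question. With a replicate block the calls numbered 2, 0 and 1 among these genes and 4, 0 and 3 among the others, in the order IL4R KO against WT, transgenic against IL4R KO and transgenic against WT. In transgenic against WT the block replaced Clu by Hc among the 3. A crossed block for IL4R KO and WT, chosen after seeing the data, gave 2 and 6.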
